A study of Mus musculus with 6 samples.

Results

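Osteoclasts are the multinucleated cells that resorb mineralized cartilage and bone, and 10 genes that mark their formation and function were followed across RNA-Seq libraries of mouse rib cages. The members were chosen by name: the transcription factor gene Nfatc1, the receptor genes Oscar and Calcr, the integrin gene Itgb3, the fusion genes Dcstamp and Ocstamp, the proton pump genes Atp6v0d2 and Tcirg1, and the enzyme genes Acp5 and Ctsk. Each of the 10 matched 1 of the 55487 gene IDs in the count table, and all 10 were among the 26596 genes that had at least 10 counts summed over the libraries and were tested.

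Osteoclasts arise by fusion of cells of the monocyte and macrophage lineage. Their formation needs the cytokine CSF1 and RANKL, the product of Tnfsf11, which cells of the osteoblast and chondrocyte lineages display, and RANKL acts through its receptor RANK and induces NFATc1, the transcription factor that switches on the fusion and resorption genes. A mature osteoclast attaches through an integrin, pumps protons into the sealed space beneath it and secretes proteases, and during endochondral ossification it helps to remove calcified cartilage as bone replaces it.

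The libraries came from 6 embryos at 16.5 dpc, all with RNA of the whole rib cage after connective tissue was cleaned away. The 3 control embryos (E420, E434 and E435) are labelled wild type, and the 3 mutant embryos (E423, E433 and E440) carry the genotype Col2-cre;Foxc1-/-;Foxc2-/-, in which floxed Foxc1 and Foxc2 alleles were removed by a Cre recombinase driven in cells of the chondrocyte lineage. This Cre is active in growth plate chondrocytes, the perichondrium and the primary ossification centre, and the deletion was not aimed at the blood-borne osteoclast lineage. The mice were of mixed C57B6 and Black Swiss background and were compared within litters according to the study, and by the crosses described each mother was homozygous for both floxed alleles, so control littermates would carry floxed alleles too. The comparison asks how the osteoclast genes of the rib changed when both forkhead genes were lost from chondrocyte progenitors. Each library is 1 embryo, and which embryos shared a litter is not given in the sources used here.

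Total counts per library ran from 37853988 to 47794799, and the unit CPM is a count scaled to the total of its library, adjusted by edgeR's TMM factors. Values per library are given in the order E420, E434, E435 for the controls and E423, E433, E440 for the mutants. Foxc1 was at 23.1, 36.9 and 24.2 CPM in the controls, against 3.56, 9.61 and 3.51 CPM in the mutants, and Foxc2 was also lower in every mutant (0.649 to 1.14 CPM) than in every control (1.99 to 4.83 CPM). Some libraries stood apart. Over genes with at least 200 summed counts, log2 ratios between 2 libraries had an SD of 0.135 between mutants E423 and E440 and 0.156 between controls E420 and E435, against 0.493 to 1.58 for the other 13 pairs. For these pairs the chi-square statistic averaged 3.19 and 8.43 per gene over genes with at least 20 summed counts. The other 13 pairs gave 63.7 to 354, and sampling noise alone gives 2 if both ends of a fragment are counted. An excess over 2 does not tell separate embryos from repeated preparations. The 6 libraries, each labelled as its own embryo, were kept as separate samples. Control E434 and mutant E433 were the libraries with the highest cartilage markers. The fold changes and calls were therefore also computed without E433, and with the close libraries summed.

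The members did not behave as 1 group in the mutants, and the DNA before their start sites is shown for 3 that represent the patterns described below: Oscar and Acp5, which were far lower in mutant E433 than in the other mutants, and Ctsk, which was equally low in all 3. The table of RefSeq promoters (GRCm38.p6) held 10 start sites for 5 of the members (Acp5, Calcr, Ctsk, Oscar and Tcirg1). The 250 bases before the start are printed 5′ to 3′ on the gene's strand, with each NFAT core (GGAAA, or TTTCC for the other strand) in capitals. The windows are chr7:3616158-3616407 on the minus strand for Oscar, chr9:22130599-22130848 on the minus strand for the last of 3 Acp5 starts (its final bases lie in the first exon of another Acp5 transcript), and chr3:95498960-95499209 on the plus strand for Ctsk.
Oscar: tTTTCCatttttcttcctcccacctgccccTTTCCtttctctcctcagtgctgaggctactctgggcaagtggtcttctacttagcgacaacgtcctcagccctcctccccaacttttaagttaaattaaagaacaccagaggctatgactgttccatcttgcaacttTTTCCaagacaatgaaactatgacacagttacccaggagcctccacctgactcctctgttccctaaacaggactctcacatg
Acp5: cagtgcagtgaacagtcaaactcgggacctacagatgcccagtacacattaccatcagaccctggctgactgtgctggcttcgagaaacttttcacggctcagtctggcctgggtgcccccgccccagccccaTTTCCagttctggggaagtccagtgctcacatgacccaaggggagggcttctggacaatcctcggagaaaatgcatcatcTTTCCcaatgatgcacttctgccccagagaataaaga
Ctsk: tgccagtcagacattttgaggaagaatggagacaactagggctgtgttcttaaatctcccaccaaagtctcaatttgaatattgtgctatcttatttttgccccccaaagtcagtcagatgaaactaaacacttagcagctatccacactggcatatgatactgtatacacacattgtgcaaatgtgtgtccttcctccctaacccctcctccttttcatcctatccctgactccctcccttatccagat
The NFAT core was found 3 times in the Oscar window, 2 times in the Acp5 window and 0 times in the Ctsk window. The other 2 Acp5 windows held 1 each, and among the members without the wide gap in E433, 1 window of Tcirg1 held 2 and 1 of Calcr held 1, so the number of cores did not separate the patterns. The core was present in 6 of the 10 member windows and in 55.6% of the 32851 windows of all genes, so a match is common by the letters alone. The forkhead core TAAACA was in 2 member windows, those of Oscar and Ctsk, and in 12.03% of all windows. The PU.1 core GAGGAA was in 3 member windows against 23.3% of all, the M-box core CATGTG in 2 against 12.3%, and the AP-1 site TGANTCA in 0 against 6.75%. The RUNX site TGTGGT (14.05% of all windows), the E-box CACGTG (6.02%) and the TATA box TATAAA (12.4%) were in 0 member windows. Both strands were searched, windows of the same gene can overlap, and a PU.1 core can overlap an NFAT core.

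Every member had a lower level in all 3 mutants than in all 3 controls, which was so for 8.21% of all genes tested. In TPM, the length-scaled level from the authors' other pipeline, this held for 9 of the 10. The exception was Tcirg1, which had 24.9, 20.9 and 22.1 TPM in the controls, against 18.3, 24.1 and 21.5 TPM in the mutants. The fall passed the limits of an adjusted p under 0.1 and a change of at least 1 on the log2 scale for Ctsk alone, where 0.0301% of all genes tested were called lower by edgeR's quasi-likelihood test with Benjamini-Hochberg adjustment. DESeq2's Wald test also called Ctsk and no other member, against 0.557% of the genes it gave an adjusted p. No member was called higher by edgeR or DESeq2, and 0 of the 10 were higher at an unadjusted p under 0.05. Before adjustment, 5 members (Ctsk, Calcr, Itgb3, Nfatc1 and Tcirg1) were lower at p under 0.05, against 4.7% of all genes. The median log2 fold change of the members was -0.76 with all 6 libraries and -0.45 without E433, and that of all genes tested was 0.01 and 0.00. In whole-tissue RNA, fewer osteoclasts, less RNA per osteoclast and a change in other cells that express a member cannot be told apart.

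**Figure D1:**
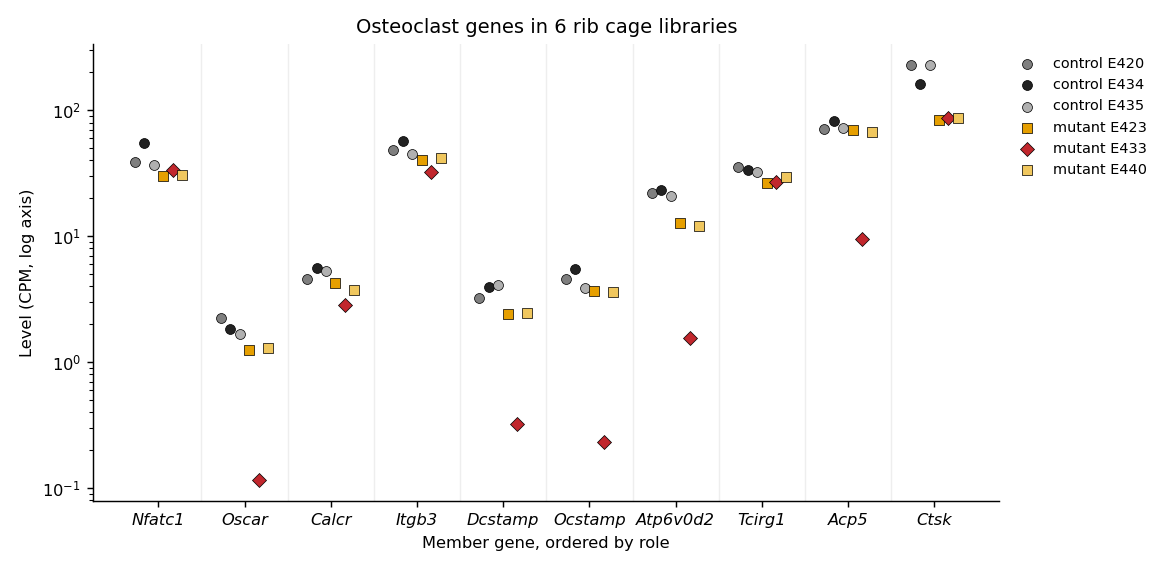
Level of each member in each library (CPM, log axis), ordered by role, with circles for the 3 controls, squares for mutants E423 and E440 and a diamond for mutant E433. The mutants lie below the controls for all 10 genes, and E433 lies far below the other mutants for Oscar, Dcstamp, Ocstamp, Atp6v0d2 and Acp5.

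Nfatc1 (ENSMUSG00000033016.16, chromosome 18 from 80606205 to 80713071 in GRCm38), the transcription factor gene at the head of osteoclast differentiation, had 39.2, 55.2 and 37.1 CPM in the controls, against 30.2, 33.6 and 30.5 CPM in the mutants. The groups did not overlap and the 3 mutants lay close together, while control E434 stood above the other controls. It differed by -0.48 on the log2 scale (standard error 0.162, 95% interval -0.87 to -0.09), with an adjusted p of 0.418 from edgeR, by -0.53 without E433 (adjusted p = 0.162) and by -0.28 without control E434. NFATc1 also acts in other cells, such as those of the endocardium and lymphocytes, so its level is not specific to osteoclasts.

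The receptor genes split. Oscar (ENSMUSG00000054594.13, chromosome 7 from 3609813 to 3616157), which encodes an immunoglobulin-like receptor that co-stimulates NFATc1 induction, had 2.24, 1.83 and 1.67 CPM in the controls, against 1.25, 0.116 and 1.30 CPM in the mutants. Mutant E433 had 5 counts, a 95% Poisson interval of 0.0377 to 0.271 CPM, and was 10.8-fold below the lower of the other mutants. Oscar had a log2 fold change of -1.10, with an adjusted p of 0.608 (edgeR, standard error 0.697), and -0.58 without E433 (adjusted p = 0.148). Calcr (ENSMUSG00000023964.15, chromosome 6 from 3685680 to 3764714), which encodes the receptor through which calcitonin inhibits resorption, had 4.58, 5.65 and 5.26 CPM in the controls, against 4.26, 2.83 and 3.75 CPM in the mutants. Here E433 was the lowest library, but only 1.32-fold below E440. The log2 fold change of Calcr was -0.51 (standard error 0.191, adjusted p = 0.437) and -0.36 without E433 (adjusted p = 0.212).

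Itgb3 (ENSMUSG00000020689.4, chromosome 11 from 104608000 to 104670476) encodes the beta 3 chain of the integrin by which osteoclasts attach to bone, a chain that platelets and their precursors also carry. It had 48.9, 57.2 and 45.3 CPM in the controls, against 40.3, 32.2 and 42.02 CPM in the mutants, so the groups did not overlap and E433 was again the lowest. For Itgb3 the log2 fold change was -0.40, with an adjusted p of 0.419 (edgeR, standard error 0.136), and -0.29 without E433 (adjusted p = 0.194). The 8 megakaryocyte and platelet markers summed to 33.1 to 36.5 CPM in the mutants, above 26.5 to 30.8 CPM in the controls, but Pf4 alone made up most of the sum. Of the 8, 5 had a log2 fold change below 0, with a median of -0.40, and edgeR called 0, with 0 lower and 2 higher at an unadjusted p under 0.05. Without E433 the median was -0.89, and edgeR called 2 lower (Gp9, -1.79, adjusted p = 0.0392, and Treml1, -2.36, adjusted p = 0.0227) and 1 higher (Gp1ba, 1.36, adjusted p = 0.0702). The part of these markers in the level of Itgb3 was not tested.

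Both fusion genes showed a wide gap between mutant embryos. Dcstamp (ENSMUSG00000022303.9, chromosome 15 from 39745930 to 39760938), which encodes the transmembrane protein that osteoclast precursors need to fuse, had 3.26, 3.93 and 4.12 CPM in the controls, against 2.41, 0.325 and 2.45 CPM in the mutants. Mutant E433 held 14 counts of it, an interval of 0.178 to 0.545 CPM, whereas the intervals of E423 and E440 overlapped. Its log2 fold change was -1.13, with an adjusted p of 0.569 (edgeR, standard error 0.637). Without E433 it was -0.63 (standard error 0.161, adjusted p = 0.0834), past the limit on p but not that on the fold. Ocstamp (ENSMUSG00000027670.4, chromosome 2 from 165393760 to 165400405), which encodes a related membrane protein of fusing precursors, had 4.58, 5.47 and 3.92 CPM in the controls, against 3.66, 0.232 and 3.62 CPM in the mutants. Its 10 counts in E433 (interval 0.111 to 0.427 CPM) put that embryo at 4.98% of the control mean, the lowest of any member, while E423 and E440 lay just under control E435. For Ocstamp the log2 fold change was -0.89 (standard error 0.800, adjusted p = 0.722) and -0.35 without E433 (adjusted p = 0.295).

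The 2 proton pump genes also parted. Atp6v0d2 (ENSMUSG00000028238.6, chromosome 4 from 19876841 to 19922605) encodes the d2 subunit of the vacuolar ATPase, a subunit that is enriched in osteoclasts and also takes part in their fusion. It had 22.2, 23.4 and 20.9 CPM in the controls, a narrow range, and 12.7, 1.55 and 11.98 CPM in the mutants. Over all 6 libraries the log2 fold change was -1.34 (standard error 0.671, 95% interval -2.95 to 0.27), with an adjusted p of 0.531 from edgeR. Without E433 the change was smaller and its error much smaller, at -0.84 (standard error 0.0943, adjusted p = 0.0139). Tcirg1 (ENSMUSG00000001750.16, chromosome 19 from 3896050 to 3907133), which encodes the a3 subunit that places the pump at the resorbing membrane, had 35.3, 33.8 and 32.6 CPM in the controls, against 26.6, 27.2 and 29.6 CPM in the mutants. With all 6 libraries this was the smallest change of the 10, at -0.29 on the log2 scale (standard error 0.0832, adjusted p = 0.389) and -0.26 without E433 (adjusted p = 0.129).

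The enzyme genes were the most abundant members per kilobase of exon, and they differed in pattern. Ctsk (ENSMUSG00000028111.4, chromosome 3 from 95499256 to 95509362) encodes cathepsin K, the main collagen-digesting protease of osteoclasts. It had 229, 161 and 230 CPM in the controls, against 84.0, 86.8 and 87.7 CPM in the mutants. Which cells of the rib cage this RNA came from was not tested. The mutants lay close together, E433 included, and the control mean of 207 ± 39.6 CPM (SD, n = 3) stood against a mutant mean of 86.2 ± 1.92 CPM (SD, n = 3). EdgeR gave a log2 fold change of -1.26 (standard error 0.148, 95% interval -1.62 to -0.91), with an adjusted p of 0.0999 that is at the edge of the limit, and DESeq2 gave an adjusted p of 1.79e-11. The size of the fall was the same without E433 (-1.26, adjusted p = 0.0228), but without control E420 or E435 or mutant E423 or E440 the edgeR adjusted p lay between 0.475 and 0.617 at log2 fold changes from -1.27 to -1.18. With the close libraries summed, 2 samples against 2, it was -1.18 (adjusted p = 0.9998), and on the RSEM counts it was -1.24 (adjusted p = 0.135).

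Acp5 (ENSMUSG00000001348.15, chromosome 9 from 22126727 to 22135711), the gene of tartrate-resistant acid phosphatase and the classical stain of osteoclasts, had 70.9, 82.0 and 71.8 CPM in the controls, against 69.5, 9.44 and 66.9 CPM in the mutants. Mutants E423 and E440 thus lay just under the lowest control, and E433 was 7.09-fold below the lower of them. Acp5 had a log2 fold change of -0.62, with an adjusted p of 0.760 (edgeR, standard error 0.644, 95% interval -2.17 to 0.92), and -0.13 (95% interval -0.35 to 0.08, adjusted p = 0.412) without E433. Exons of Acp5 overlap the antisense gene 6530413G14Rik, which had 0 to 6 counts per library, and strand was not used in the counting. Within single libraries, the level of Acp5 per level of Ctsk was 0.310, 0.510 and 0.312 in the controls, 0.827 and 0.763 in E423 and E440, and 0.109 in E433, so the ratio of these CPM values was higher than in every control in 2 mutants and lower than in every control in 1.

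**Figure D2:**
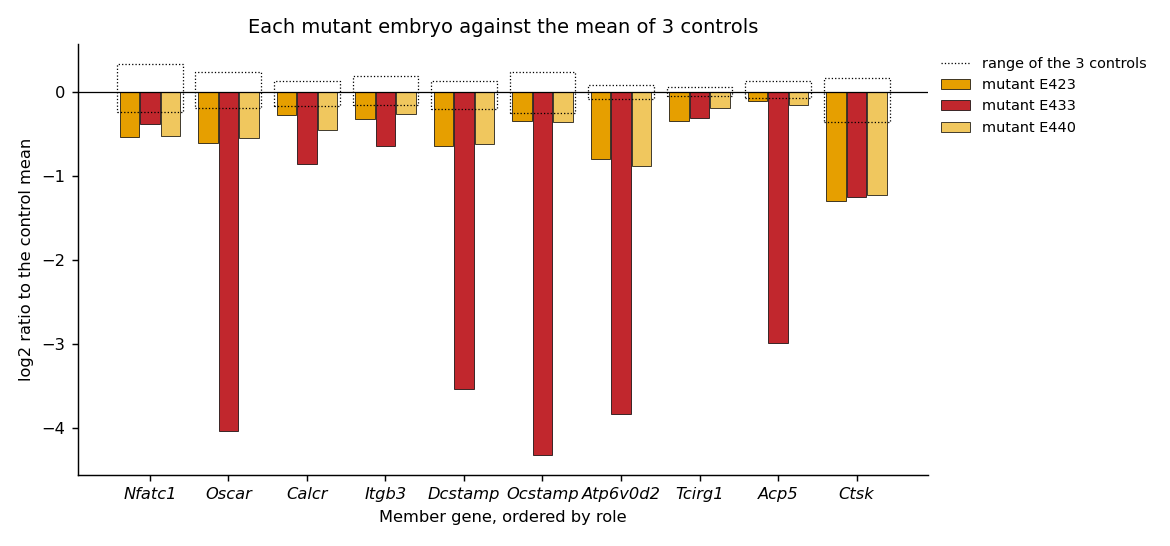
Log2 ratio of each mutant library to the mean of the 3 controls for each member, with a dotted box for the range of the single controls. E433 reaches -2.99 to -4.33 for Acp5, Dcstamp, Atp6v0d2, Oscar and Ocstamp, whereas the 3 bars are even for Ctsk, from -1.30 to -1.24.

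For 5 of the 10 members, 1 mutant embryo thus stood far below the others. Mutant E433 was at least 4-fold below both other mutants for 5 of the 10 members (Acp5, Dcstamp, Ocstamp, Atp6v0d2 and Oscar), by 7.09-fold to 15.6-fold, which was so for 2.66% of the 16568 genes with a mean of at least 1 CPM. TPM values gave the same count of 5. In E433 these 5 stood at 4.98% to 12.6% of the control mean, and in E423 and E440 at 54.1% to 92.8%. For the other 5 members E433 stood at 42.02% to 80.2% of the control mean, and E423 and E440 at 40.7% to 87.5%. In control E434, the other library rich in cartilage markers, the 5 genes had a median log2 ratio of 0.08 to the mean of the 3 controls, E434 included. Over all genes, however, E433 was nearer to E420 and E435 (SD of log2 ratios 0.493 and 0.495) than to E434 (0.898), and the part of cartilage content in the low values of E433 was not tested. Over the 6 libraries, Pearson's r of log2 CPM between the 5 genes ran from 0.973 to 0.997 in 10 pairs, all of which share the low value of E433. Because the 5 genes were picked by that low value, a high r between them follows from the choice. The r ran from 0.591 to 0.915 among the other 5 members and from 0.278 to 0.921 between the sets, so these ranges cannot be compared as a test.

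**Figure D3:**
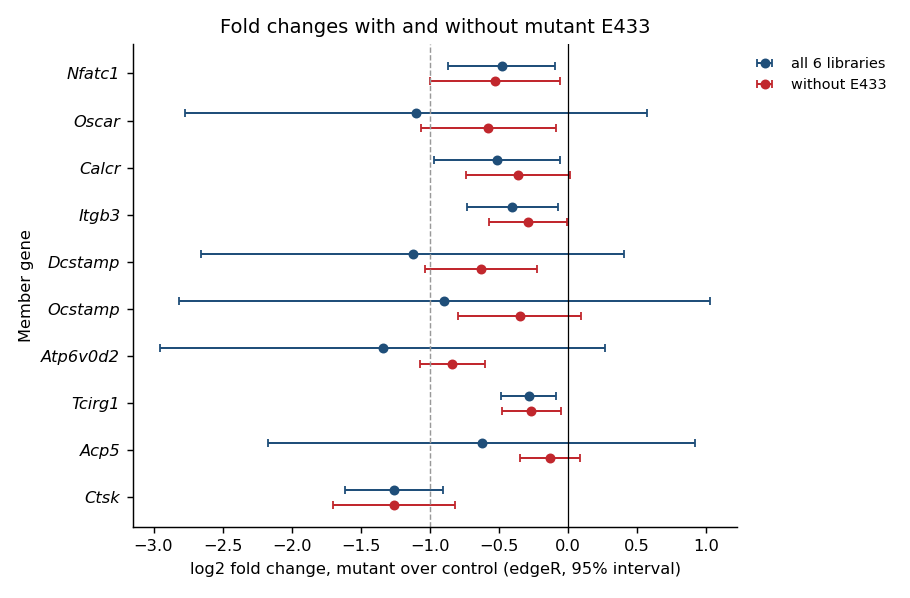
Log2 fold change of each member, mutant over control, with its 95% interval from edgeR, for all 6 libraries and for the 5 without E433; the dashed line marks the fold limit of -1. Leaving out E433 narrows the intervals of Acp5, Dcstamp, Ocstamp, Atp6v0d2 and Oscar and moves them towards 0, and leaves Ctsk at -1.26.

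Without E433, 3 members (Ctsk, Atp6v0d2 and Dcstamp) had an adjusted p under 0.1 in edgeR at any fold, against 6.18% of the genes tested in that direction, and Ctsk alone passed the fold limit as well. DESeq2 without E433 gave 5 members (those 3 with Nfatc1 and Tcirg1), against 13.4% of its genes. The 2 mutants left, E423 and E440, are the close pair, so the spread within the mutants is then that of this pair.

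Levels of different genes were compared per kilobase of exon (RPKM, from the exon lengths in the count table). In the controls Ctsk was highest at 137 ± 26.2 RPKM (SD, n = 3), followed by Acp5 at 36.9 ± 3.04 RPKM, and neither overlapped its neighbour in any control library. Itgb3 (8.55 RPKM), Atp6v0d2 (8.16), Tcirg1 (7.36) and Nfatc1 (5.87) came next, and of these Itgb3 overlapped Atp6v0d2 and Tcirg1 overlapped Nfatc1 in range. Dcstamp, Calcr, Ocstamp and Oscar were lowest, from 1.41 to 1.04 RPKM, with ranges that overlapped from each to the next. In the mutants Ctsk was again highest, at 57.0 ± 1.27 RPKM, and Acp5 was second by its mean, at 24.0 ± 16.7 RPKM. Its range reached into those of the next genes, since in E433 Acp5 was at 4.65 RPKM, below Tcirg1 (5.91) and Itgb3 (5.46). Atp6v0d2 moved from place 4 to place 6 with a mutant mean of 3.22 ± 2.30 RPKM, with E433 at 0.572 RPKM.

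The cytokines that start osteoclast formation were measured in the same libraries. Tnfsf11, the gene of RANKL, had 3.64, 4.77 and 3.65 CPM in the controls, against 1.44, 0.858 and 1.19 CPM in the mutants, with no overlap and no mutant far from the others. Its log2 fold change was -1.78 (standard error 0.242), with an adjusted p of 0.145 from edgeR and 1.02e-07 from DESeq2, so DESeq2 called it and edgeR did not. Without E433, edgeR called Tnfsf11 lower as well (-1.60, adjusted p = 0.0191). Tnfrsf11b, the gene of the decoy receptor that binds RANKL, overlapped between the groups (log2 fold change -0.38, adjusted p = 0.706 from edgeR). Csf1 had a log2 fold change of -0.32 (adjusted p = 0.384). Il34, the gene of a second ligand of the CSF1 receptor, was at 0.882 to 2.62 CPM in the controls, and at 1.88 CPM in E433 but at 10.2 and 9.69 CPM in E423 and E440, the libraries with the highest keratinocyte markers (log2 fold change 2.001, adjusted p = 0.421 from edgeR and 0.0246 from DESeq2).

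Another 48 genes of osteoclast signalling, transcription, acid secretion, matrix breakdown and fusion were listed beside the members, and all 48 were tested. EdgeR called 0 of them. At an unadjusted p under 0.05, edgeR had 10 lower, against 4.7% of all genes, and 2 higher. DESeq2 called 0 lower and 1 higher (Prdm1). Their median log2 fold change was -0.16, between that of the members and that of all genes. Every mutant was below every control for 17 of the 48, against 8.21% of all genes tested. Without E433, edgeR called 1 of the 48 lower (Mmp9, -1.33, adjusted p = 0.00334), and Prdm1 was among those called higher. The share of all genes with a DESeq2 adjusted p under 0.1 at any fold was not counted. With all 6 libraries, DESeq2 gave 6 of the 48 such a value on the low side. These were Itgav, the partner chain of the beta 3 integrin (log2 fold change -0.65, adjusted p = 0.0101 from DESeq2), Plcg2, a phospholipase of the co-stimulatory pathway (-0.76, adjusted p = 0.0101), Tnfrsf11a, the gene of RANK (-0.64, adjusted p = 0.0441), the creatine kinase gene Ckb (-0.51), the myeloid transcription factor gene Spi1 (-0.62) and the kinase gene Src (-0.34). For none of these 6 was E433 4-fold below the other mutants.

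Among the 48, a 4-fold gap between E433 and both other mutants was found for 3, against 2.66% of the 16568 genes with a mean of at least 1 CPM. Mmp9, the gelatinase of osteoclasts, had 286, 316 and 275 CPM in the controls, against 120, 18.9 and 112 CPM in the mutants, and so followed the pattern of Atp6v0d2 (log2 fold change -1.81, adjusted p = 0.421 from edgeR). Siglec15, a receptor of fusing precursors, was under 1 CPM in every library and so was not among those 16568 genes. It had 0.649 and 0.563 CPM in E423 and E440 and 2 counts in E433. Prdm1 was the reverse case, with E433 (8.21 CPM) at control level (7.13 to 8.51 CPM) and E423 and E440 at 38.8 and 40.9 CPM. The broad vacuolar ATPase genes did not share the pattern of Atp6v0d2: Atp6v1a, Atp6v1b2, Atp6v1c1, Atp6v0a1 and Atp6v0d1 had log2 fold changes between -0.15 and 0.22, with adjusted p from 0.483 to 0.923 in edgeR.

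Outside the members, the 5 genes whose log2 CPM followed the mean profile of the members most closely over the 6 libraries were Snx10, Bcl10, Tpm3-rs7, Nyap2 and Socs2, with Pearson's r from 0.993 to 0.997 among 16558 genes. Snx10, a sorting nexin gene of osteoclast acid secretion that was also among the 48, had 24.97, 26.7 and 22.5 CPM in the controls, against 19.2, 8.54 and 18.7 CPM in the mutants. The mean profile, in centred log2 CPM, was at -1.59 in E433 and at 0.0072 to 0.61 in the other libraries. A high r therefore rests mainly on a low value in E433. Bcl10 ran only from 37.1 to 39.1 CPM, so a high r does not mean a large change. Tpm3-rs7 is named as a relative of Tpm3, and reads may be split between such copies. Mmp9 had rank 8 in this order and the osteoblast gene Ibsp rank 10.

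Markers of other cells moved with the members to different degrees. The 14 monocyte and macrophage markers, the lineage from which osteoclasts arise, were all detected in every library and summed to 340, 348 and 340 CPM in the controls, against 272, 339 and 265 CPM in the mutants. In E433, where the summed level of the osteoclast members was lowest (194 CPM), the macrophage sum was the nearest to the controls among the mutants, and Adgre1 (17.4 CPM), C1qb (36.2 CPM) and Ptprc (9.79 CPM) were within or above their control ranges. EdgeR called 0 of the 14, with 3 lower and 0 higher at an unadjusted p under 0.05, and DESeq2 called 0. Without E433 neither tool called any at the fold limit. At an adjusted p under 0.1, 9 of the 14 were lower in edgeR (6.18% of all genes) and 10 in DESeq2 (13.4%). The median log2 fold change of the 14 was then -0.40, near that of the members without E433 (-0.45). In E433, 2 of the 14 lay below every control, Laptm5 (40.2 CPM) and Cd68. Cd68, which osteoclasts also express, was at 6.80 CPM in E433, at 10.3 and 10.99 CPM in the other mutants and at 13.7 to 15.4 CPM in the controls.

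Bone-forming markers were lower in the mutants along with the osteoclast genes. The 12 osteoblast and osteocyte markers summed to 11521 to 16642 CPM in the controls, against 8389, 8136 and 7996 CPM in the mutants. Of the 12, 10 had every mutant below every control, against 8.21% of all genes tested. EdgeR called 1 (Phex, log2 fold change -1.68, adjusted p = 0.0775) and DESeq2 called 7. E433 was the lowest library for 9 of the 12, a share that was not counted over all genes. A 4-fold gap between E433 and both other mutants was found for 1 of the 12, against 2.66% of genes with a mean of at least 1 CPM. That gene was Spp1, which encodes osteopontin, at 27.3 CPM in E433. Its level was 119 and 124 CPM in E423 and E440 and 437 to 499 CPM in the controls. Mmp13, a collagenase gene of hypertrophic chondrocytes and osteoblasts, had 4.29 CPM in E433, 35.1 and 37.8 CPM in the other mutants and 200.2 to 209 CPM in the controls. The 8 hypertrophic markers summed to 1901 to 2453 CPM in the controls, against 1362, 956 and 1319 CPM in the mutants. How far these shifts bear on the osteoclast genes was not tested.

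**Figure D4:**
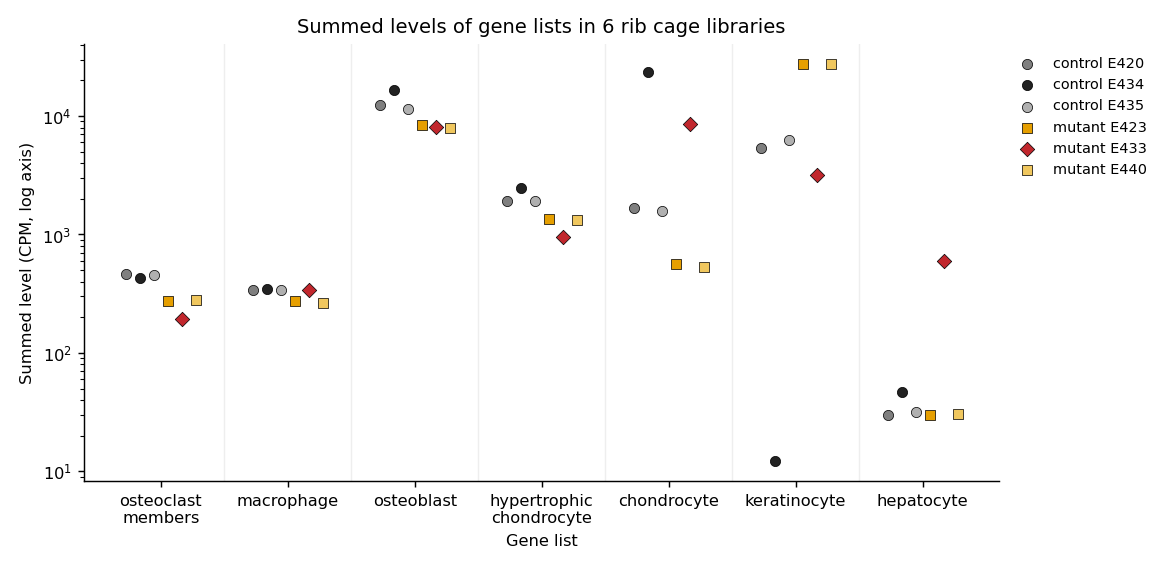
Summed level (CPM, log axis) of the 10 osteoclast members and of 6 marker lists in each library, with circles for controls, squares for mutants E423 and E440 and a diamond for E433. The osteoclast sum is 429 to 460 CPM in the controls, against 194 to 280 CPM in the mutants, the macrophage sum of E433 is at 339 CPM, and the chondrocyte, keratinocyte and hepatocyte sums differ between libraries of the same group.

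Tissue composition also differed within groups. The 10 chondrocyte markers summed to 23368 CPM in control E434 and 8515 CPM in mutant E433, against 1564 to 1661 CPM in the other controls and 532 to 559 CPM in the other mutants. The 8 keratinocyte markers summed to 12.1 CPM in E434, 5365 and 6236 CPM in E420 and E435, 3179 CPM in E433, and 27433 and 27577 CPM in E423 and E440, with Flg at 0 in E434. The 7 hepatocyte markers measured were at 600.3 CPM in E433 against 30.04 to 46.8 CPM in the other 5 libraries, led by Alb (320 CPM in E433). Sums were 470 to 590 CPM in controls and 432 to 542 CPM in mutants for 8 endothelial markers, 523 to 592 and 424 to 580 CPM for 6 muscle precursor markers, 10.1 to 14.96 and 11.1 to 17.4 CPM for 8 neutrophil markers, and 2.87 to 3.03 and 3.66 to 5.36 CPM for 8 T cell markers, of which 0 to 3 were at 0 counts in a library. The part of these differences in the member levels was not tested.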

How the data were processed

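RNA-Seq was performed on rib cages of 3 control and 3 mutant embryos. The authors aligned reads to GRCm38 with HISAT2 2.1.0 and deposited raw counts per gene from featureCounts 1.6.0, without normalization, counting each read end on its own and without strand. The authors also deposited expected counts and TPM from STAR 2.7.6 and RSEM 1.2.31; expected counts were rounded. Tables of the authors' DESeq2 comparisons (fold changes and p-values), with 12 columns of per-sample values, were not used.

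Symbols came from the gene table supplied with an older GENCODE release. Genes with at least 10 summed counts were scaled by TMM and tested with the quasi-likelihood test of edgeR 4.0.16 (R 4.3.3), Benjamini-Hochberg adjustment over all genes, and limits of 0.1 on the adjusted p and 1 on the log2 fold change; DESeq2 1.42.0 was an alternative. Members and gene lists were chosen with earlier results of these data known. Named genes were the members, Foxc1 and Foxc2, list genes called by edgeR or DESeq2 or with large changes, and the 5 most like the members' mean profile (log2 CPM, prior count 2); other list genes named were chosen after their values were seen. On simulated data with 200 changed genes the tests were checked. The simulation used the same dispersion for all genes and held no close pairs or divergent libraries. It therefore did not check the tests under the structure of these libraries. Poisson intervals (95%) cover counting error only and treat every count as independent. They are too narrow where both ends of a fragment were counted. Promoters are from RefSeq. P-values measure the spread between embryos; 3 against 3 permits no exact permutation p under 0.1.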

Additional observations from a re-analysis of the deposited data

How the results depend on the processing

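The log2 fold change stayed below 0 for each of the 10 members under each of 15 alternatives. The number of members called lower went from 1 to 0 with RSEM expected counts, with an adjusted p limit of 0.05 and with the close libraries summed, and was 0 to 1 when single libraries were left out, Ctsk being lost without E420, E435, E423 or E440. For Ctsk the log2 fold change was -1.24 with RSEM, -1.18 with the close libraries summed and -1.41 to -1.18 with single libraries left out. With single libraries left out it was -1.47 to -0.63 for Dcstamp and -1.71 to -0.84 for Atp6v0d2, both past the limit on p without E433. Without both E433 and E434, members past the limit on p were Ctsk and also Dcstamp (-0.61), Atp6v0d2 (-0.80), Oscar (-0.60), Itgb3 (-0.19), Nfatc1 (-0.33) and Tcirg1 (-0.27). The libraries left are the close pairs alone, so the spread within each group is then that of a close pair. In this setting 9959 of the 25045 genes tested had an unadjusted p under 0.05 in edgeR, in either direction. The share of all genes past the adjusted limit was not counted. DESeq2 without E433, chosen after seeing the data like the summed libraries, gave -0.63 for Dcstamp, -0.84 for Atp6v0d2, -0.52 for Nfatc1 and -0.26 for Tcirg1.

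Over all genes, 8 were called lower and 9 higher by edgeR. The numbers were 122 and 355 with DESeq2, 16 and 19 with robust empirical Bayes, 15 and 22 without a low-count filter, 5 and 5 with RSEM, 648 and 1418 without E433 and E434, 454 and 777 with DESeq2 without E433, and 14 lower with no fold limit. They were 0 and 0 at an adjusted p limit of 0.05 (2820 genes had an unadjusted p under 0.05) and with the close libraries summed (769 genes). Leaving out single libraries gave 0 to 353 lower and 0 to 734 higher, the highest without E433. Why the counts moved was not tested. No paired analysis by litter was possible, because which embryos shared a litter is not given in the sources used here. Depth limits Oscar, Ocstamp and Dcstamp in E433, with 5, 10 and 14 counts.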
